A study of Mus musculus with 9 samples.

Results

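The 10 genes described here encode the enzymes that carry glucose carbon from fructose 1,6-bisphosphate to pyruvate: the aldolases Aldoa and Aldoc, triosephosphate isomerase (Tpi1), glyceraldehyde-3-phosphate dehydrogenase (Gapdh), phosphoglycerate kinase (Pgk1), the phosphoglycerate mutases Pgam1 and Pgam2, the enolases Eno1 and Eno3, and pyruvate kinase (Pkm). They were taken by symbol from 9 RNA-seq libraries, and all 10 were found, each listed 1 time, among 25175 gene symbols. All 10 were among the 11337 genes tested. The libraries came from HL-1 cells, an immortalised mouse atrial cardiomyocyte line, grown in Claycomb medium and exposed for 24 h to 5 µM ivermectin, 10 µM importazole or vehicle (0.1% DMSO), with 3 libraries per group. Ivermectin is an antiparasitic drug also used in the laboratory to inhibit nuclear import through importin α/β, and importazole is a small molecule used to inhibit importin β. The labels do not say whether the compound groups also received DMSO, or whether the 3 libraries of a group came from separate cultures, so the p-values measure the spread between these libraries, which may be technical. HL-1 is a single proliferating cell line, and each compound was given at 1 dose and 1 time.

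Aldolase splits fructose 1,6-bisphosphate into a pair of triose phosphates, which triosephosphate isomerase interconverts. GAPDH oxidises glyceraldehyde 3-phosphate and makes NADH, phosphoglycerate kinase and pyruvate kinase each make ATP, and the mutase and enolase steps lie between them. Several steps have isoforms with different tissue patterns: Aldoa and Eno3 are abundant in muscle, Aldoc in brain, Pgam2 in skeletal and heart muscle, and Pgam1 and Eno1 in most tissues. Eno1 gives way to Eno3 as striated muscle matures. The adult heart takes most of its energy from fatty acids, while many of these genes are classical targets of the hypoxia-inducible factor HIF-1 and rise when oxygen is short.

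Levels are FPKM, fragment numbers scaled by the authors to transcript length and sequencing depth. The files hold no read counts, but for part of the genes low values appeared to step in whole reads. Ratios of low values between libraries gave a relative depth of 1 to 1.65 times that of the shallowest library, ivermectin 1. Absolute read numbers remained unknown. Between 11055 and 11200 genes reached 1 FPKM in a library. The abundant transcript Yam1 was listed at 0 in ivermectin 3 and vehicle 2, while elsewhere it took 5.86% to 10.4% of a library's summed FPKM. FPKM is relative to the whole library, and calls printed below for single genes that are lost or gained without those 2 libraries are given with their adjusted p. The 12 cardiomyocyte marker genes were all detected, as the label of the line requires, and 7 of the 11 skeletal muscle markers listed stayed below 1 FPKM in every library. Other skeletal muscle markers were present: Tnnc2 averaged 52.6 FPKM, Ckm 12.4 FPKM and Mylpf 2.72 FPKM over the 9 libraries.

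Gapdh was the most abundant of the 10 transcripts and Aldoc the least in every group, and the order of the group means was the same in all 3 groups: Gapdh, Eno1, Aldoa, Tpi1, Pkm, Pgam1, Pgk1, Pgam2, Eno3 and Aldoc. On this length-corrected scale, Gapdh averaged 2786 ± 39.0 FPKM in ivermectin-treated cells, 3422 ± 185 FPKM in importazole-treated cells and 3219 ± 63.4 FPKM in vehicle-treated cells (SD, n = 3 each). Aldoc averaged 15.8 ± 0.416, 37.5 ± 4.64 and 26.5 ± 0.446 FPKM in the same order of groups. Some neighbours in this order were not separated by their libraries: Pkm and Pgam1 overlapped in all 3 groups, Eno1 and Aldoa overlapped in importazole- and vehicle-treated cells, and Pgam2 and Eno3 overlapped in vehicle-treated cells. The 10 genes together made up 1.67% to 1.76% of summed FPKM without Yam1 in ivermectin libraries, 2.17% to 2.29% in importazole libraries and 2.11% to 2.21% in vehicle libraries. The ivermectin libraries lay below all others in this share, and the importazole and vehicle libraries overlapped.

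**Figure D1:**
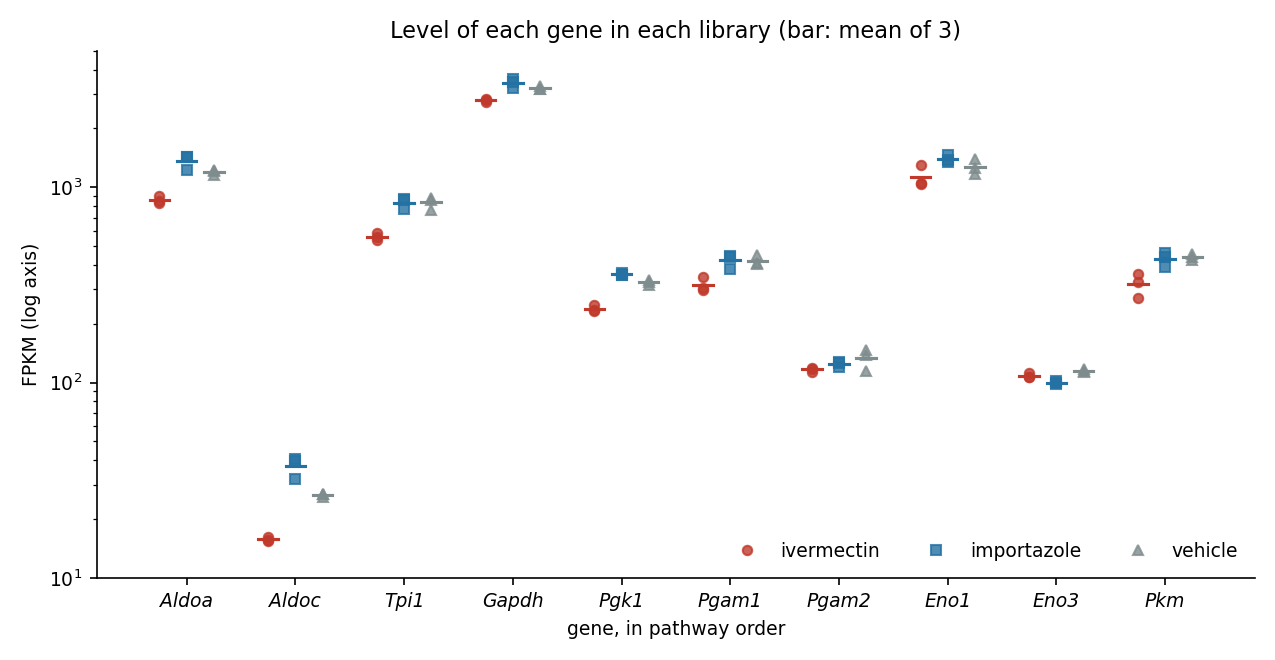
FPKM on a log axis of the 10 genes in pathway order, with 1 point per library and a bar at the mean of the 3 libraries of each group. All ivermectin libraries lie below all vehicle libraries for 8 of the 10 genes. All importazole libraries lie above all vehicle libraries for Aldoc and Pgk1 and below them for Eno3, and they overlap for the other genes.

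Ivermectin lowered 6 of the 10 genes relative to vehicle: Aldoa, Aldoc, Tpi1, Pgk1, Pgam1 and Pkm, with 0 higher and 4 not past the test (limma on log2(FPKM + 1), Benjamini-Hochberg adjusted p under 0.05 over all genes tested). Of all genes tested, 4.31% were called in this comparison, with 2.52% lower. The 10 genes had a median log2 change of -0.43, against 0.01 over all genes tested. For 8 of the 10 genes every ivermectin library lay below every vehicle library, a pattern shown by 12.2% of all genes tested.

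Importazole changed 1 of the 10, with Aldoc higher, 0 lower and 9 not past the test, where 2.26% of all genes were called, 1.69% higher and 0.565% lower. The median log2 change of the 10 genes was 0.04, as over all genes tested (0.04). All importazole libraries lay above all vehicle libraries for Aldoc and Pgk1 (16.5% of all genes) and below them for Eno3 (7.07% of all genes). A p that misses the threshold does not show that the other genes were equal, and their 95% intervals are given below.

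In the direct comparison of both compounds, ivermectin gave the lower level for 7 of the 10 genes and the higher for 0, and 3 were not past the test. Of all genes, 3.42% were called, with 2.71% lower. The 7 were the 6 lower against vehicle and Gapdh. The median log2 difference was -0.42, against -0.03 over all genes. All ivermectin libraries lay below all importazole libraries for 9 genes (16.1% of all genes) and above them for Eno3 (8.04% of all genes). The doses differ, 5 µM for ivermectin and 10 µM for importazole, so this sets 2 treatments side by side and not 2 compounds at 1 dose. The 3 comparisons share libraries and are not independent of each other. In these bulk libraries, fewer cells with a transcript and less of it per cell cannot be told apart.

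**Figure D2:**
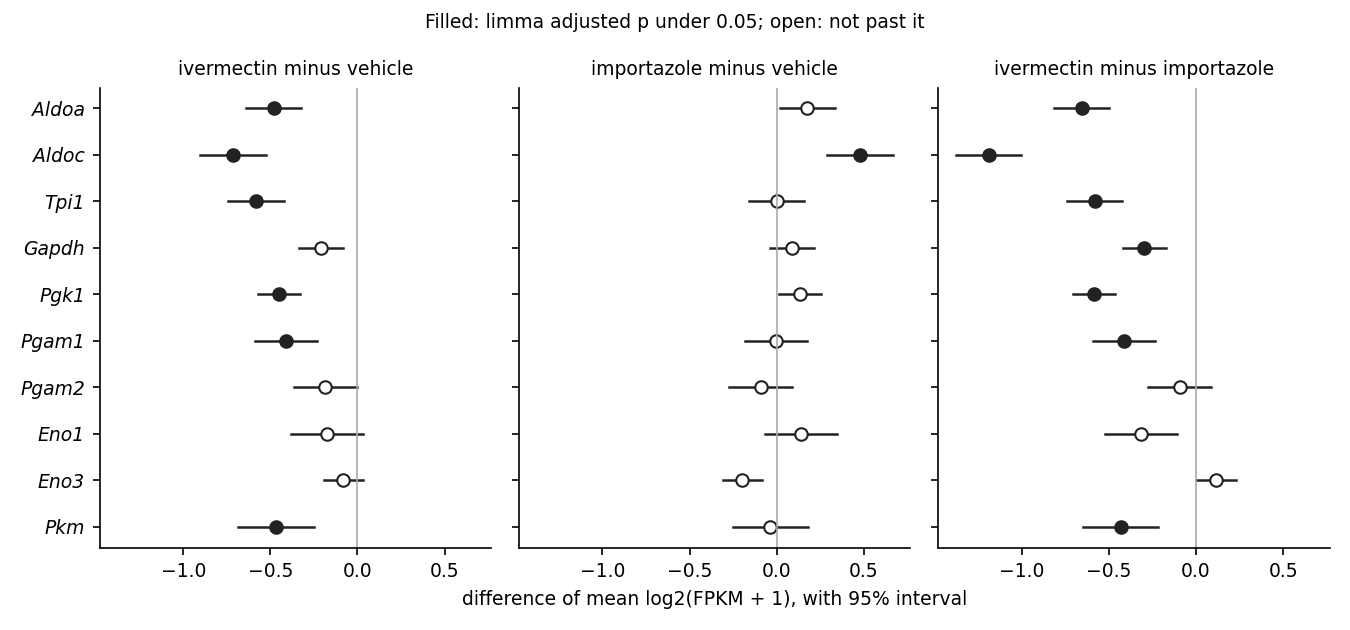
Difference of mean log2(FPKM + 1) for each gene in the 3 comparisons, with lines for the 95% interval of limma; filled points pass an adjusted p under 0.05. In ivermectin minus vehicle the points lie from -0.71 for Aldoc to -0.08 for Eno3, and in importazole minus vehicle from -0.20 for Eno3 to 0.48 for Aldoc.

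Both aldolases fell with ivermectin, and Aldoc, the less abundant, had the largest log2 change of the 10 genes in each of the 3 comparisons. Aldoa (chr7:126795234-126800751, minus strand, GRCm38), the muscle form, was at 850.0, 898 and 827 FPKM in ivermectin libraries, 1429, 1422 and 1218 FPKM in importazole libraries, and 1229, 1160.3 and 1206 FPKM in vehicle libraries. The ivermectin libraries lay well below all others, and the importazole libraries straddled vehicle 1. Aldoa fell by 0.48 log2 units with ivermectin relative to vehicle (SE 0.07, 95% interval -0.64 to -0.32, limma adjusted p = 0.00336). On the linear FPKM + 1 scale it fell by 28.4%. The difference was 0.17 with importazole relative to vehicle (0.02 to 0.33, limma adjusted p = 0.267) and -0.66 for ivermectin minus importazole (limma adjusted p = 0.000394).

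Aldoc (chr11:78322968-78327781, plus strand), the form best known from brain, was at 15.5, 16.3 and 15.7 FPKM in ivermectin libraries, 39.8, 40.6 and 32.2 FPKM in importazole libraries, and 26.8, 26.8 and 26.0 FPKM in vehicle libraries. The 3 groups did not overlap, with ivermectin lowest and importazole highest. Aldoc fell by 0.71 log2 units with ivermectin relative to vehicle (SE 0.09, 95% interval -0.90 to -0.52, limma adjusted p = 0.000745). It rose by 0.48 with importazole relative to vehicle (SE 0.09, 95% interval 0.29 to 0.67, limma adjusted p = 0.0146), and the direct difference was -1.19 (limma adjusted p = 1.53e-05). The importazole call depended on single libraries: its adjusted p was 0.0580 without vehicle 2, 0.0614 without vehicle 3, 0.0825 without importazole 1 and 0.0719 without importazole 2, and 0.0637 when ivermectin 3 and vehicle 2 were left out together, with the direction kept.

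Tpi1 (chr6:124810586-124814296, minus strand), which keeps both triose phosphates in exchange, was at 557, 582 and 534 FPKM in ivermectin libraries, 868, 865 and 773 FPKM in importazole libraries, and 862, 878 and 768 FPKM in vehicle libraries. Importazole and vehicle libraries overlapped, and the ivermectin libraries lay apart below both. Tpi1 fell by 0.58 log2 units with ivermectin relative to vehicle (SE 0.07, 95% interval -0.74 to -0.42, limma adjusted p = 0.000945). With importazole the difference from vehicle was under 0.01 in size (95% interval -0.16 to 0.16, limma adjusted p = 0.999), and its sign turned without vehicle 1 (0.022), vehicle 2 (0.036) or importazole 3 (0.054). The direct difference was -0.58 (limma adjusted p = 0.00104).

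Gapdh (chr6:125161715-125166467, minus strand), often used as a reference transcript, was at 2742, 2818 and 2796 FPKM in ivermectin libraries, 3218, 3580.0 and 3469 FPKM in importazole libraries, and 3290.2, 3169 and 3197 FPKM in vehicle libraries. All ivermectin libraries lay below all others, and importazole and vehicle libraries overlapped. The log2 change with ivermectin relative to vehicle was -0.21 (SE 0.06, 95% interval -0.33 to -0.08), which did not pass (limma adjusted p = 0.0700) but did pass after median-of-ratios scaling (limma adjusted p = 0.0258), while after quantile normalization it was -1.06 and did not pass (limma adjusted p = 0.434). It was 0.09 with importazole (-0.04 to 0.21, limma adjusted p = 0.499). The direct difference of -0.30 passed (limma adjusted p = 0.0182), but without ivermectin 1, ivermectin 2, importazole 2 or importazole 3 its adjusted p was 0.0577, 0.0606, 0.102 and 0.0739, and after quantile normalization 0.914. Of 15 genes often used as references, a list that includes Pgk1 and Gapdh, only Pgk1 passed between ivermectin and vehicle, 0 passed between importazole and vehicle, and Pgk1 and Gapdh passed in the direct comparison. Of all genes tested, 4.31%, 2.26% and 3.42% passed in these comparisons, in that order.

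Pgk1 (chrX:106187100-106203699, plus strand), the earlier of the ATP-making steps, was at 234, 249.6 and 233 FPKM in ivermectin libraries, 355, 365 and 357 FPKM in importazole libraries, and 329, 317 and 336 FPKM in vehicle libraries. The groups did not overlap, and the spread within each was small. Pgk1 fell by 0.45 log2 units with ivermectin relative to vehicle (SE 0.05, 95% interval -0.57 to -0.33, limma adjusted p = 0.000766). With importazole the difference from vehicle was 0.13 (0.01 to 0.25) and did not pass (limma adjusted p = 0.265), although all 3 importazole libraries were the higher ones. The direct difference was -0.59 (limma adjusted p = 0.000125).

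At the mutase step, Pgam1 (chr19:41911923-41918660, plus strand), the widely expressed form, was at 298, 306 and 347 FPKM in ivermectin libraries, 382, 439 and 444 FPKM in importazole libraries, and 447, 412 and 406 FPKM in vehicle libraries. Ivermectin libraries were the lowest, and importazole and vehicle libraries overlapped. Pgam1 fell by 0.41 log2 units with ivermectin relative to vehicle (SE 0.08, 95% interval -0.59 to -0.23, limma adjusted p = 0.0174), and the direct difference was -0.41 (limma adjusted p = 0.0196). Against vehicle its adjusted p became 0.0667 or 0.0546 when vehicle 1 or vehicle 2 was left out, and 0.0578 or 0.0617 when ivermectin 1 or ivermectin 2 was. In the direct comparison it was 0.0738 without ivermectin 1, 0.0725 without ivermectin 2, 0.0912 without importazole 2 and 0.0853 without importazole 3. With importazole the difference from vehicle was under 0.01 in size (95% interval -0.18 to 0.18, limma adjusted p = 0.996).

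Pgam2 (chr11:5801640-5803733, minus strand), the muscle form of the mutase, was at 113, 119 and 118 FPKM in ivermectin libraries, 127, 127 and 120.4 FPKM in importazole libraries, and 139, 147 and 115 FPKM in vehicle libraries. Vehicle 3 stood apart from the other vehicle libraries and lay within the ivermectin range. The differences from vehicle were -0.19 with ivermectin (95% interval -0.37 to -0.00451, limma adjusted p = 0.231) and -0.09 with importazole (-0.27 to 0.09, limma adjusted p = 0.643), and the direct difference was -0.09 (limma adjusted p = 0.599). Without vehicle 3 the ivermectin difference was -0.29 and passed (limma adjusted p = 0.0457).

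None of the enolase differences passed the test for a listed isoform. Eno1 (chr4:150236721-150248879, plus strand), the widely expressed form and the second most abundant of the 10 transcripts, was at 1035, 1049 and 1297 FPKM in ivermectin libraries, 1347, 1455 and 1384 FPKM in importazole libraries, and 1253, 1166 and 1388 FPKM in vehicle libraries. Ivermectin 3 stood above the other ivermectin libraries and lay within the vehicle range. The Eno1 difference was -0.18 with ivermectin relative to vehicle (95% interval -0.38 to 0.03, limma adjusted p = 0.320) and 0.14 with importazole (-0.07 to 0.35, limma adjusted p = 0.512). The direct difference of -0.32 did not pass (limma adjusted p = 0.0995). Without ivermectin 3 it was -0.42 and passed (limma adjusted p = 0.0142), and leaving out ivermectin 3 together with vehicle 2 it also passed (limma adjusted p = 0.0117).

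Eno3 (chr11:70657202-70662513, plus strand), the enolase of mature muscle, was at 106, 111 and 107 FPKM in ivermectin libraries, 99.8, 101 and 98.7 FPKM in importazole libraries, and 113, 117 and 114 FPKM in vehicle libraries. The 3 groups did not overlap, and Eno3 was the one gene of the 10 with the importazole libraries lowest. The differences were nevertheless small. They were -0.08 with ivermectin relative to vehicle (95% interval -0.19 to 0.03, limma adjusted p = 0.402), -0.20 with importazole relative to vehicle (-0.31 to -0.08, limma adjusted p = 0.0841) and 0.12 for ivermectin minus importazole (0.00276 to 0.23, limma adjusted p = 0.252). After median-of-ratios scaling the importazole difference was -0.24 and passed (limma adjusted p = 0.0363).

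Pkm (chr9:59656368-59679375, plus strand), which makes pyruvate and ATP in the last step, is listed as 1 gene, so its M1 and M2 splice forms cannot be told apart in these values. It was at 328, 359.9 and 271 FPKM in ivermectin libraries, 437, 461 and 391 FPKM in importazole libraries, and 454, 439 and 426 FPKM in vehicle libraries. Ivermectin libraries were the lowest but the most spread, with ivermectin 3 below the other 2. Pkm fell by 0.47 log2 units with ivermectin relative to vehicle (SE 0.10, 95% interval -0.69 to -0.25, limma adjusted p = 0.0234). The adjusted p became 0.0787, 0.0785 and 0.0516 when vehicle 1, 2 and 3 were left out in turn, 0.0537 when ivermectin 1 was, and 0.110 when ivermectin 3 and vehicle 2 were left out together. With importazole the difference from vehicle was -0.04 (-0.25 to 0.18, limma adjusted p = 0.901). The direct difference of -0.43 (limma adjusted p = 0.0396) was kept in 8 of 20 alternative settings. Its adjusted p was 0.0507, 0.0654 and 0.0543 without vehicle 1, 2 and 3, 0.0858 and 0.0641 without ivermectin 1 and 3, 0.119 and 0.155 without importazole 1 and 2, and 0.0996 without ivermectin 3 and vehicle 2 together.

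Isoform composition was compared as the minor isoform's percentage of the summed FPKM of its step in each library. The sums leave out the near-identical copies of Pgam1 and Eno1 described below. The Pgam2 and Eno3 shares would be smaller with these copies included. With 3 libraries against 3, the exact two-sided permutation test cannot give a p below 0.1, so none of the 9 comparisons could pass 0.05, and the smallest Benjamini-Hochberg adjusted value over the 9 was 0.15. Aldoc was 1.81% ± 0.0459 of aldolase FPKM in ivermectin-treated cells, 2.69% ± 0.103 in importazole-treated cells and 2.17% ± 0.0802 in vehicle-treated cells (SD, n = 3 each). The groups did not overlap: the differences were -0.358 percentage points for ivermectin minus vehicle, 0.519 for importazole minus vehicle and -0.877 for ivermectin minus importazole, each with exact permutation p = 0.1 and adjusted p = 0.15. Summed aldolase FPKM was 874 ± 36.7 with ivermectin, 1394 ± 124 with importazole and 1225 ± 34.9 with vehicle (SD, n = 3 each).

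Pgam2 was 27.6%, 28.0% and 25.4% of mutase FPKM in ivermectin libraries, 24.9%, 22.4% and 21.3% in importazole libraries, and 23.6%, 26.3% and 22.1% in vehicle libraries. Ivermectin libraries lay above importazole libraries, a difference of 4.09 percentage points (exact permutation p = 0.1, adjusted p = 0.15), and both overlapped vehicle. The differences from vehicle were 2.96 percentage points with ivermectin (exact permutation p = 0.2, adjusted p = 0.257) and -1.13 with importazole (exact permutation p = 0.6, adjusted p = 0.6), where the importazole value ran from -2.15 without importazole 1 to -0.0030 without vehicle 2. Eno3 was 9.33%, 9.60% and 7.64% of enolase FPKM in ivermectin libraries, 6.90%, 6.52% and 6.65% in importazole libraries, and 8.27%, 9.11% and 7.60% in vehicle libraries. Importazole libraries lay below both other groups: the difference was -1.64 points for importazole minus vehicle and 2.17 points for ivermectin minus importazole (exact permutation p = 0.1 and adjusted p = 0.15 each). Ivermectin and vehicle libraries overlapped, with a difference of 0.529 points (exact permutation p = 0.5, adjusted p = 0.563) that ran from 0.157 without ivermectin 2 to 1.14 without ivermectin 3.

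**Figure D3:**
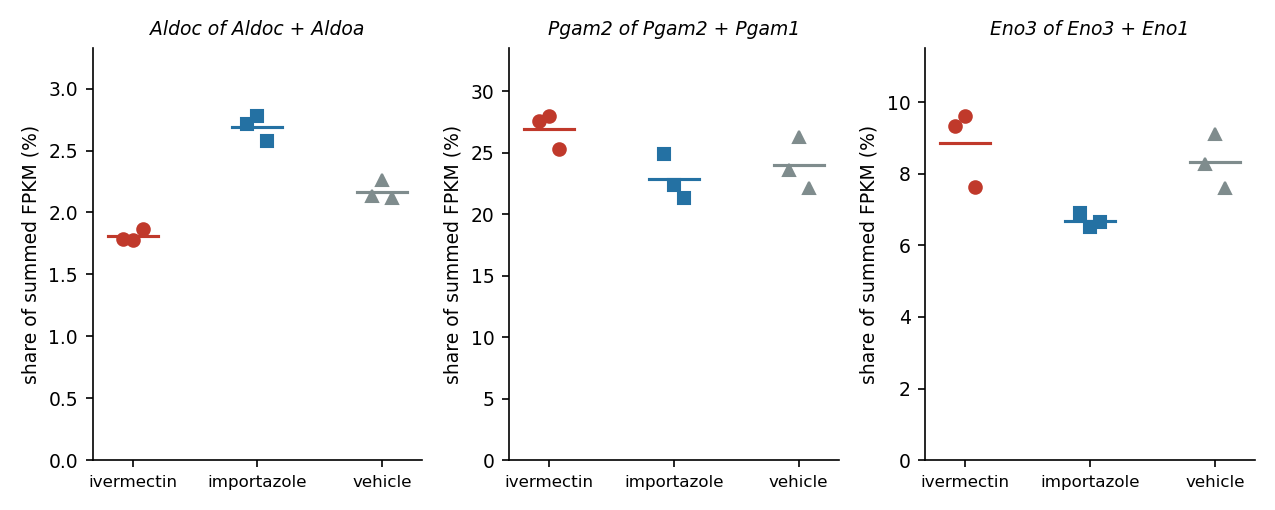
Share of the minor isoform in the summed FPKM of its step without near-identical copies, in percent, with 1 point per library and a bar at the group mean. Aldoc shares separate all 3 groups, at means of 1.81% with ivermectin, 2.69% with importazole and 2.17% with vehicle, while Pgam2 and Eno3 shares of ivermectin and vehicle libraries overlap.

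Near-identical copies exist for 6 of the 10 genes. Short reads can be split between a gene and its copy, and no source used here says how the authors' counting treated such reads or those of copies that the files do not list. A search of GENCODE M21 transcripts for stretches of at least 300 bases with at least 95% identity found 77 genes matching Gapdh (74 of them pseudogenes), 4 matching Pgk1, 3 matching Eno1, 1 each matching Pgam1, Tpi1 and Pkm, and 0 matching Aldoa, Aldoc, Pgam2 and Eno3. A copy listed in the files at an appreciable level existed for Pgk1, Pgam1 and Eno1. The processed pseudogene Pgk1-rs7 is 100% identical to Pgk1 over 1255 bases and was listed at 42.4% to 48.2% of the Pgk1 FPKM of the same library. Pgam1-ps2 is 100% identical to Pgam1 over 765 bases and was listed at 44.1% to 53.7% of it. Eno1b, annotated as a coding gene, matches Eno1 at 99.5% identity over 1736 bases and was listed at 13.9% to 20.6% of it.

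The ivermectin mean was the lowest of the 3 groups for each copy, as for its gene. Pgk1-rs7 averaged 110.2 ± 2.60 FPKM with ivermectin, 162 ± 9.37 FPKM with importazole and 147 ± 3.43 FPKM with vehicle (SD, n = 3 each). Pgam1-ps2 averaged 146 ± 22.4, 209 ± 3.04 and 199.9 ± 20.1 FPKM in the same order, and Eno1b averaged 184 ± 5.00, 256 ± 26.8 and 239 ± 10.0 FPKM. For all 3 copies the ivermectin libraries lay below all vehicle libraries (12.2% of all genes) and below all importazole libraries (16.1% of all genes). Of all genes tested, 2.52% were lower with ivermectin than with vehicle, and 2.26% were called for importazole minus vehicle. Relative to vehicle, the listed values with ivermectin had a log2 change of -0.41 for Pgk1-rs7 (limma adjusted p = 0.00281), -0.46 for Pgam1-ps2 (limma adjusted p = 0.0316) and -0.38 for Eno1b (limma adjusted p = 0.0204), and 0 of the 3 copies passed with importazole. Reads listed under a copy can come from its gene, so these values do not show a change of the copy itself. The Pgam1-ps2 call was kept in 9 of 19 alternative settings; leaving out any library but vehicle 3 or ivermectin 3 ended it, with adjusted p-values up to 0.101. The Eno1b call was kept in 13 of 19, with adjusted p-values of 0.0748 and 0.0715 when vehicle 1 or 2 was left out, 0.0598 and 0.0561 when ivermectin 1 or 3 was, and 0.131 when ivermectin 3 and vehicle 2 both were. With the copy's FPKM added to its gene, a check added after the data were seen, the ivermectin minus vehicle change was -0.44 for Pgk1 (limma adjusted p = 0.000664), -0.43 for Pgam1 (limma adjusted p = 0.0179) and -0.21 for Eno1 (limma adjusted p = 0.194), and the counts of genes called stayed at 6, 1 and 7 in the 3 comparisons. Eno1 and Eno1b, which share most of their sequence, stood on different sides of the threshold, and their sum did not pass.

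**Figure D4:**
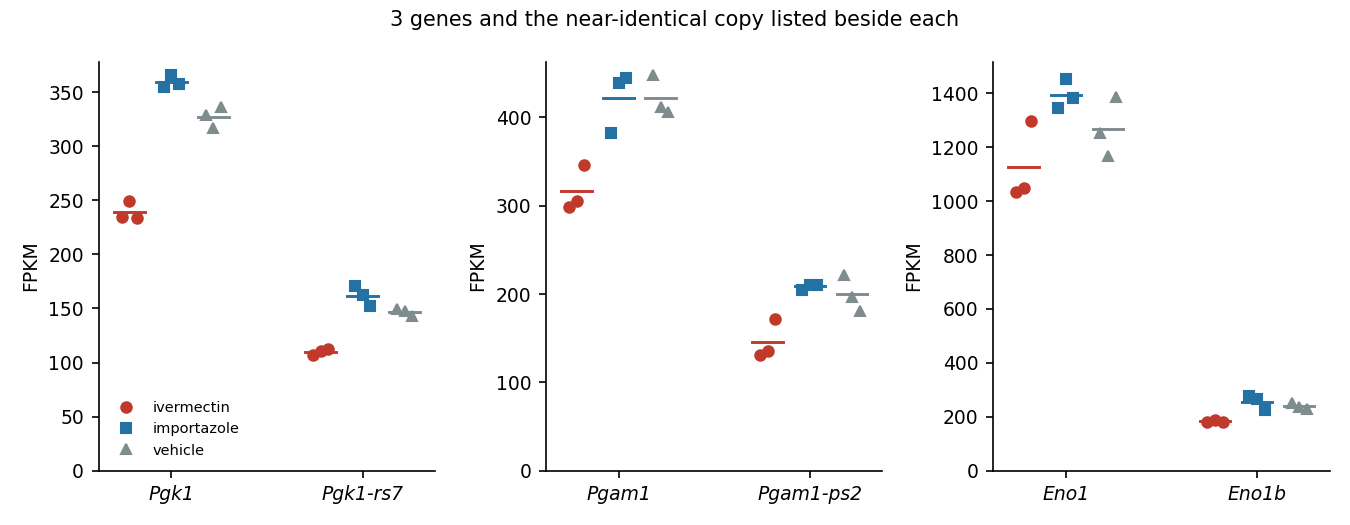
FPKM of Pgk1, Pgam1 and Eno1 and of the near-identical copy listed beside each, with 1 point per library and a bar at the group mean. In each panel the ivermectin mean is the lowest for gene and copy alike, at 239 FPKM for Pgk1 and 110.2 FPKM for Pgk1-rs7.

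Exons of Aldoa, Tpi1 and Gapdh overlap genes on the opposite strand (Fam57b, Spsb2 and Iffo1), and no source used here says whether the counting used strand. These neighbours averaged 1.35, 2.71 and 12.6 FPKM over the 9 libraries, far below the genes they overlap, and 0 of the 3 passed the test in any comparison. Of all genes tested, 4.31%, 2.26% and 3.42% passed for ivermectin minus vehicle, importazole minus vehicle and ivermectin minus importazole. All ivermectin libraries lay below all vehicle libraries for Iffo1 (-0.27, limma adjusted p = 0.0552), as for 12.2% of all genes. They lay above them for Spsb2 (0.42, limma adjusted p = 0.132), as for 12.4% of all genes, and overlapped them for Fam57b.

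RefSeq promoters on GRCm38.p6, from 250 bases before to 50 after an annotated start, were searched on both strands for the core of the hypoxia response element, ACGTG or GCGTG, which reads CACGT or CACGC on the other strand. At least 1 match was present in a promoter of 8 of the 10 genes (80%), all but Tpi1 and Pgam2. Of all 27025 genes with such a promoter, 46.7% held a match. Among the 11337 genes tested, 8395 had such a promoter under their symbol, and 69.8% of these held a match. The remaining tested genes were not counted. By promoter, 12 of 16 held a match (75%), against 43.8% of all 32851 promoters and 63.4% of 10786 promoters of genes tested. The 16 are not all separate stretches, since promoters with nearby starts overlap. The 2 Aldoa promoters with a match share the same match, and 2 of the Eno1 promoters share the same 2 matches. The E-box CACGTG, which overlaps the core, was in 0 of the 16, against 10.3% of the promoters of tested genes. Matches were present both in genes that fell with ivermectin and in genes that did not pass. Among the genes that fell, Aldoc held 3 matches in 1 annotated promoter and 1 in the other, Pgam1 3, Pgk1 2, Pkm 2 in 1 of its 2 promoters, Aldoa 1 in each of 2 of its 3 promoters, and Tpi1 0. Among the genes that did not pass, Gapdh held 3, Eno1 2 in each promoter, Eno3 1 and Pgam2 0. Shown here are a promoter of a gene that fell with matches (Aldoc) and without (Tpi1), and of a gene that did not pass with matches (Gapdh) and without (Pgam2), each given 5′ to 3′ on the strand of the gene with the matches in capitals. A match is a description of the letters and not of binding, and a part of HIF-1 in the changes was not tested.
Aldoc (chr11:78322823-78323122, plus strand): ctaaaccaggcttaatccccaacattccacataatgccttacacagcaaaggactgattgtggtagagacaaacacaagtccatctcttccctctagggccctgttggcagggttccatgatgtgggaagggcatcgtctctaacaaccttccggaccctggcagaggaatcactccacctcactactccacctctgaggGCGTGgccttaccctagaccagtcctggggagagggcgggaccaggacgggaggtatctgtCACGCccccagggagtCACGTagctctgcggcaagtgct
Tpi1 (chr6:124814109-124814408, minus strand): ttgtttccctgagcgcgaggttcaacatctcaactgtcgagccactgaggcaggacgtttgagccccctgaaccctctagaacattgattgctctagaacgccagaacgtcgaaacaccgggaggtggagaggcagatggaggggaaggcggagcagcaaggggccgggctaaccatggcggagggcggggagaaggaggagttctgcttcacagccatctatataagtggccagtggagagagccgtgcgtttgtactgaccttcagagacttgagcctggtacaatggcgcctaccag
Gapdh (chr6:125165724-125166023, minus strand): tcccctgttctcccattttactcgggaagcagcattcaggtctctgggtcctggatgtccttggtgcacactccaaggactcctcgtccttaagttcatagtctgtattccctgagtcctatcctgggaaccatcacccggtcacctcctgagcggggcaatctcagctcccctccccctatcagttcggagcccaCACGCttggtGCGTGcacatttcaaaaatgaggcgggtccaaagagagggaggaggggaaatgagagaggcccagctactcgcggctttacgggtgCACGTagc
Pgam2 (chr11:5803747-5804046, minus strand): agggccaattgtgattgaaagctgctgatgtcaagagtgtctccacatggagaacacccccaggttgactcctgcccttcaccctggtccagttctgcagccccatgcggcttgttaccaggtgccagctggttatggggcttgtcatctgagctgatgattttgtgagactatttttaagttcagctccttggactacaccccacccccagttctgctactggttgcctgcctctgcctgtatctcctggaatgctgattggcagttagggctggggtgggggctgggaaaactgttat

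In the steps before aldolase, which take glucose into the cell and phosphorylate it, 6 of 13 genes tested were lower with ivermectin than with vehicle, 1 was higher and 6 did not pass, with a median log2 change of -0.20 against 0.01 over all genes tested. With importazole 0 of the 13 passed in either direction (median -0.04). Over all genes tested, 2.52% were lower and 1.79% higher with ivermectin, and 2.26% were called with importazole. The glucose transporter Slc2a1 was at 25.2 ± 0.878 FPKM with ivermectin, 52.5 ± 2.12 FPKM with importazole and 50.9 ± 0.705 FPKM with vehicle (SD, n = 3 each), and fell by 0.99 log2 units with ivermectin relative to vehicle (limma adjusted p = 6.24e-06). Pfkl, a subunit of phosphofructokinase, fell by 1.08 (limma adjusted p = 0.00114) and hexokinase Hk1 by 0.61 (limma adjusted p = 0.00335). The gene that rose was Pfkfb3, whose product makes the phosphofructokinase activator fructose 2,6-bisphosphate, at 6.90 ± 0.352 FPKM with ivermectin, 6.04 ± 0.0957 FPKM with importazole and 4.80 ± 0.109 FPKM with vehicle (SD, n = 3 each; ivermectin minus vehicle 0.44, limma adjusted p = 0.00649). Leaving out ivermectin 3 and vehicle 2 together took the Pfkfb3 call away (limma adjusted p = 0.0696).

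After pyruvate kinase, 3 of 16 genes tested were lower with ivermectin than with vehicle and 0 were higher, with a median log2 change of 0.05. These were the lactate dehydrogenase Ldha, the lactate exporter Slc16a3 and Pdk1, a kinase that holds pyruvate dehydrogenase inactive. Ldha was at 1254 ± 46.2 FPKM with ivermectin, 1951 ± 119 FPKM with importazole and 1882 ± 4.09 FPKM with vehicle (SD, n = 3 each; -0.59, limma adjusted p = 0.000265). Slc16a3 fell by 1.60 log2 units with ivermectin relative to vehicle (limma adjusted p = 2.88e-06) and Pdk1 by 1.03 (limma adjusted p = 0.000543). With importazole 0 of the 16 passed. The shares over all genes tested were 2.52% lower with ivermectin and 2.26% called with importazole.

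Among the branches that leave the pathway between aldolase and pyruvate kinase, 3 of 12 genes were higher with each compound than with vehicle and 0 were lower. Of all genes tested, 1.79% were higher with ivermectin and 1.69% with importazole. Phgdh, Psat1 and Psph, which turn the 3-phosphoglycerate made by Pgk1 into serine, were the genes that rose, and the other 9 did not pass against vehicle. Phgdh was at 173, 189 and 172 FPKM in ivermectin libraries, 172, 171 and 172 FPKM in importazole libraries, and 93.6, 93.4 and 99.7 FPKM in vehicle libraries. Both compound groups lay apart above vehicle and beside each other. The Phgdh change relative to vehicle was 0.89 with ivermectin (limma adjusted p = 1.03e-05) and 0.84 with importazole (limma adjusted p = 3.07e-05). Psat1 changed by 0.59 and 0.56 (limma adjusted p = 0.000275 and 0.000523), and Psph by 1.23 and 0.97 (limma adjusted p = 2.43e-05 and 0.000225), with ivermectin and importazole in that order. Both comparisons share the vehicle libraries. Pgp, a phosphatase that removes 2-phosphoglycolate and glycerol 3-phosphate, was the one branch gene to pass in the direct comparison (-0.77, limma adjusted p = 0.00535). Of all genes tested, 3.42% were called in that comparison, with 2.71% lower. Pgp was at 55.8, 58.7 and 74.9 FPKM in ivermectin libraries and 103, 109 and 109.5 FPKM in importazole libraries. In vehicle libraries it was at 101.9, 79.3 and 77.5 FPKM, and it did not pass against vehicle with either compound.

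**Figure D5:**
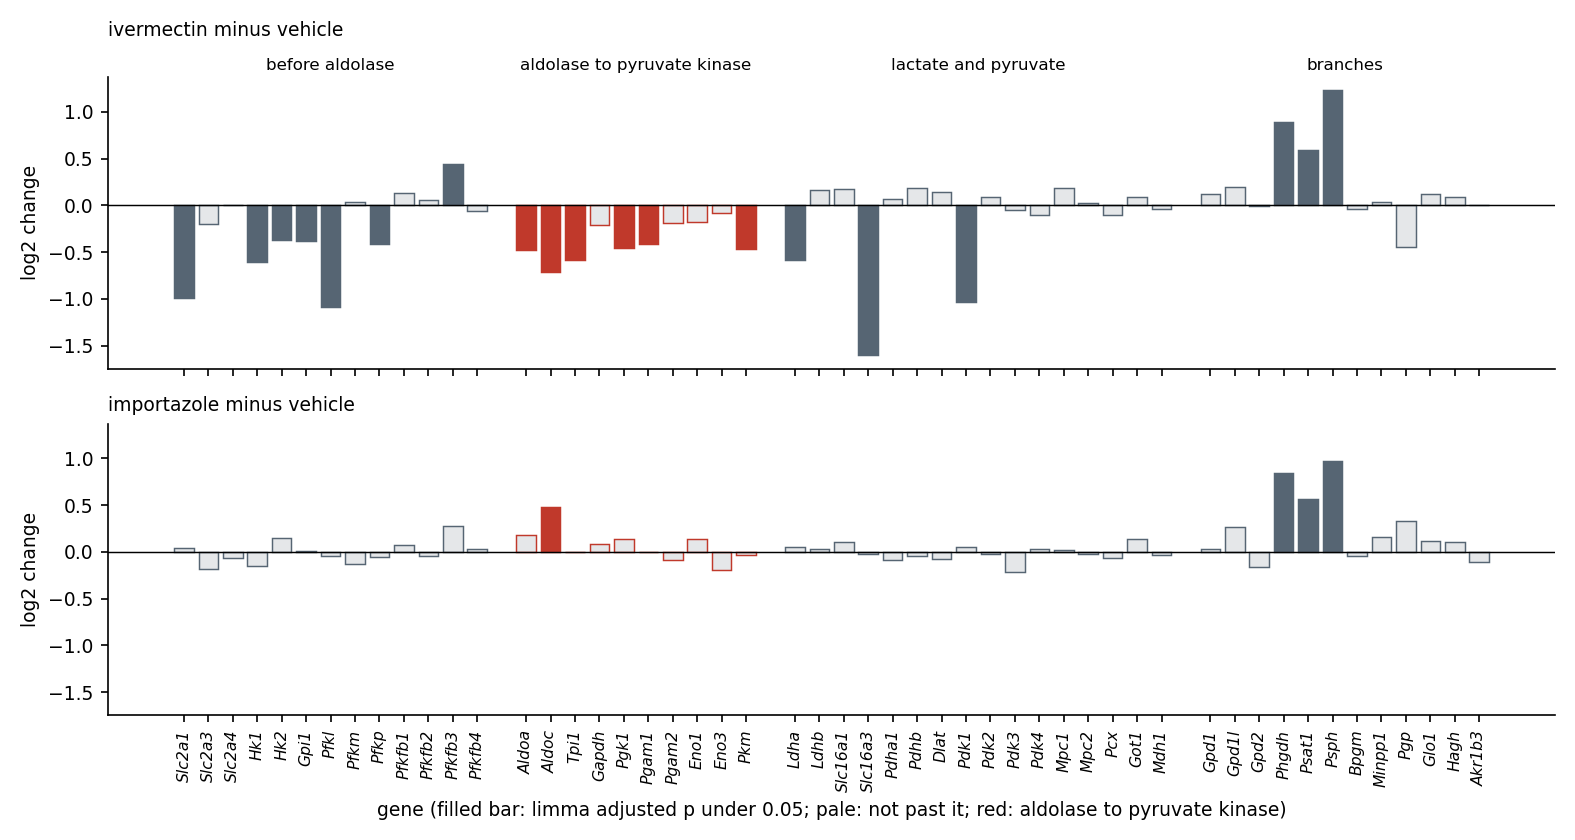
Log2 change on the FPKM + 1 scale for each tested gene before aldolase, from aldolase to pyruvate kinase (red), in lactate and pyruvate handling, and in the branches, with ivermectin minus vehicle above and importazole minus vehicle below; filled bars pass a limma adjusted p under 0.05. Filled bars in the upper panel run down to -1.60 for Slc16a3 and up to 1.23 for Psph, and in the lower panel the 4 filled bars are Aldoc, Phgdh, Psat1 and Psph.

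In the pentose phosphate pathway 0 of 8 genes passed with ivermectin, while Rpia, ribose 5-phosphate isomerase, was higher with importazole than with vehicle (0.47, limma adjusted p = 0.0448), a call kept in 7 of 20 alternative settings and lost, with adjusted p-values up to 0.156, when any library but vehicle 1 was left out, and also without ivermectin 3 and vehicle 2 together (0.0958). In glycogen turnover 2 of 9 were lower with ivermectin than with vehicle, Pgm2, which interconverts glucose phosphates (-0.66, limma adjusted p = 0.000265), and the glycogen synthase Gys1 (-0.31, limma adjusted p = 0.0282), the second of these kept in 12 of 20 settings. Of all genes tested, 2.52% were lower with ivermectin and 1.69% higher with importazole than with vehicle. The Gys1 adjusted p became 0.0928 or 0.0913 when vehicle 1 or 2 was left out, 0.0760 or 0.0776 when ivermectin 2 or 3 was, 0.0515 when importazole 1 was, and 0.167 when ivermectin 3 and vehicle 2 both were. Pck2, the mitochondrial enzyme that makes phosphoenolpyruvate and the single gluconeogenic gene tested of 6 listed, was named after its values were seen. It was higher in both compound groups, at 37.4 ± 1.51 FPKM with ivermectin, 29.1 ± 2.12 FPKM with importazole and 17.0 ± 1.23 FPKM with vehicle (SD, n = 3 each). Its log2 change relative to vehicle was 1.09 with ivermectin and 0.74 with importazole (limma adjusted p = 1.71e-05 and 0.000379).

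The list of hypoxia genes outside glycolysis held 18 tested genes, of which 3 (Hif1a, Epas1 and Arnt) encode subunits of the hypoxia-inducible factors and the other 15 are known for induction by hypoxia. Of the 18, 13 were lower with ivermectin than with vehicle and 0 higher, with a median log2 change of -0.72 against 0.01 over all genes tested. With importazole 0 of the 18 passed (median 0.01), and in the direct comparison 15 were lower with ivermectin (median -0.73). Over all genes tested, 2.52% were lower for ivermectin minus vehicle and 2.71% for ivermectin minus importazole. Split in this way after the values were seen, 13 of the 15 induced genes were lower (median -0.86) and 0 of the 3 subunits passed (median -0.02). Hif1a, the one gene of the 18 with a positive difference, averaged 42.7 ± 6.07 FPKM with ivermectin, 39.4 ± 2.58 FPKM with importazole and 40.3 ± 3.42 FPKM with vehicle (SD, n = 3 each; ivermectin minus vehicle 0.08, limma adjusted p = 0.719), and its sign turned without ivermectin 3 (-0.028). The mitophagy receptor Bnip3 was at 10.3, 9.30 and 10.2 FPKM in ivermectin libraries, 46.4, 41.6 and 41.8 FPKM in importazole libraries, and 43.3, 41.3 and 40.3 FPKM in vehicle libraries. Its ivermectin libraries stood far below both other groups, which overlapped, and it fell by 1.97 log2 units relative to vehicle (limma adjusted p = 1.15e-07). Egln3 and Egln1, prolyl hydroxylases that mark HIF for destruction, fell by 1.79 (limma adjusted p = 1.24e-07) and 0.86 (limma adjusted p = 1.03e-05), and the peptide hormone gene Adm fell by 1.06 (limma adjusted p = 1.75e-05). Among the 10 glycolytic genes the largest change for the same pair of groups was -0.71, for Aldoc.

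Apart from Eno1b, few other genes of the same enzyme families reached a measurable level. Gapdhs, Pgk2, Eno2, Eno4 and Pklr did not reach the level needed for testing, and Eno2, the enolase of neurons, reached at most 1.07 FPKM. Pgam5, a mitochondrial phosphatase named for its resemblance to the mutases, was tested and did not pass in any comparison. The 5 genes whose values followed the mean profile of the 10 most closely over the 9 libraries, by the root mean square difference of centred log2(FPKM + 1) values among 7604 genes of at least 5 FPKM, were P4ha2, Tuba1a, Alkbh5, Srf and Gys1, with differences of 0.0368 to 0.0520 against a median of 0.220 over those genes. By the same measure the 10 genes themselves lay at 0.0692 for Pgk1 to 0.311 for Aldoc. P4ha2, a collagen prolyl hydroxylase that is also on the hypoxia list, was at 31.4 ± 0.703 FPKM with ivermectin, 41.6 ± 1.25 FPKM with importazole and 40.2 ± 2.35 FPKM with vehicle (SD, n = 3 each).

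Cardiomyocyte markers summed to 5566 to 6002 FPKM in ivermectin libraries, 6295 to 6784 FPKM in importazole libraries and 6714 to 7623 FPKM in vehicle libraries, and 6 of the 12 were lower with ivermectin than with vehicle, against 1 higher and 3 lower with importazole. Of all genes tested, 2.52% were lower with ivermectin, and 1.69% were higher and 0.565% lower with importazole. The 8 fibroblast markers summed to 36.9 to 38.9 FPKM, 34.4 to 37.0 FPKM and 23.7 to 26.9 FPKM in the same order of groups, with 6 of the 8, the defining markers Col3a1, Pdgfra and Dcn among them, below 1 FPKM in every library. Most of that sum was 1 gene, the collagen receptor Ddr2, at 36.1 ± 0.912 FPKM with ivermectin, 33.6 ± 1.44 FPKM with importazole and 23.7 ± 1.83 FPKM with vehicle (SD, n = 3 each), which rose relative to vehicle with ivermectin (0.59, limma adjusted p = 0.000702) and with importazole (0.49, limma adjusted p = 0.00379). The 4 smooth muscle markers summed to 1158 to 1279 FPKM, 1173 to 1285 FPKM and 1347 to 1404.0 FPKM, most of it Acta2. Tagln averaged 153 FPKM and Cnn1 0.971 FPKM over all libraries, and Myh11 stayed below 1 FPKM. The 11 skeletal muscle markers listed summed to 58.3 to 79.3 FPKM, 54.2 to 72.0 FPKM and 73.1 to 82.1 FPKM, most of it Tnnc2 and then Ckm. The 8 endothelial markers summed to at most 11.9 FPKM and the 5 macrophage markers listed to at most 2.95 FPKM in any library. The part of cell composition in the changes of the 10 genes was not tested.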

How the data were processed

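Bead-captured mRNA of the HL-1 line was read on the Ion Proton system, per the labels' protocols. The labels gave each library's group and number. The authors deposited 1 file per library with a gene symbol and an FPKM value, per the file headers. Named in the submitters' processing notes, without versions or roles, are Cufflinks, STAR, Bowtie and Bowtie2, and the builds mm10 and GRCm38. The sources used here do not state the annotation, the use of strand or the treatment of reads with several matches. FPKM depends on the whole library, so an abundant transcript present in some libraries can shift the other values.

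Each file held 25230 lines, and repeated lines of 48 symbols, 0 of them among the 10 genes, were added up. The 11337 of 25175 symbols that reached 1 FPKM in 3 or more libraries were analysed as log2(FPKM + 1), so fold changes of low genes are understated. All 9 libraries entered 1 linear model of group in limma 3.58.1 (R 4.3.3), with intensity trend and robust empirical Bayes moderation, and two-sided p-values were adjusted by Benjamini-Hochberg over all genes in each of 3 comparisons. The fit was tested on simulated data. Isoform shares were compared with exact two-sided permutation tests, adjusted over 9 comparisons. Relative depth came from ratios of low values (0.001 to 0.05 FPKM) between 36 pairs of libraries, of which 8.73% to 12.4% per pair matched ratios of small whole numbers within 0.001 on the log10 scale; with no absolute depth, no counting interval is given. No 2 libraries were identical. Copies were sought with BLAST 2.17.0. Positions are from GENCODE M21 on GRCm38, and promoters from RefSeq on GRCm38.p6. Figures were drawn with matplotlib 3.10.9.

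The genes described, the lists beside them and the tests were chosen with earlier results of these data known. All 10 genes are reported; in each list the genes eligible to be named were up to 4 with the smallest p and 1 of the other direction, of which not all are named. Marker genes and genes said to be so were named after their values were seen. A gene of the family list is not reported here. The bystander genes overlapping or copying the 10 were named whatever their result. Alternatives were a filter at 5 FPKM or none, quantile or median-of-ratios scaling, pseudocounts of 0.5 and 0.1, the 6 libraries compared alone, the replicate number as a block, leaving out each library, or ivermectin 3 and vehicle 2 together, another treatment of repeated symbols and, for isoforms, a log2 ratio. Adding the FPKM of a near-identical copy to its gene was chosen after the data were seen.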

Additional observations from a re-analysis of the deposited data

How the results depend on the processing

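Aldoa, Aldoc, Tpi1 and Pgk1 passed in ivermectin minus vehicle and in ivermectin minus importazole under all 20 alternatives, with log2 changes against vehicle of -0.45, -0.70, -0.51 and -0.43 at the smallest in size. The number of the 10 genes called lower ranged from 4 to 6 for ivermectin minus vehicle when 1 library was left out and from 4 to 7 for ivermectin minus importazole, with 4 without ivermectin 1 and without importazole 2. With no filter the number lower was 4 and 5 in these comparisons, in that order, and with only the 6 libraries compared 5 and 5. Pgam1 and Pkm did not pass against vehicle with no filter (limma adjusted p = 0.0631 and 0.0856). For importazole minus vehicle the number higher ranged from 0 to 1 when 1 library was left out, was 0 with no filter and 0 without ivermectin 3 and vehicle 2 (which list Yam1 at 0), and the number lower was 1, Eno3, after median-of-ratios scaling. Over all genes, calls for ivermectin minus vehicle numbered 489, and 211 with no filter, 274 with only the 6 libraries compared, 195 without that pair of libraries, and 243 (without vehicle 2) to 399 with 1 library left out. Calls for importazole minus vehicle numbered 256, and 133 with no filter, 161 without that pair, and 128 (without importazole 1) to 320 with 1 left out. Calls for ivermectin minus importazole numbered 388, and 177 with no filter, 233 without that pair, and 177 (without importazole 2) to 396 with 1 left out. The labels state no pairing by replicate number. Deviations from the group means correlated at -0.21 to 0.14 for equal numbers and -0.22 to 0.31 for different numbers. With so few libraries these values cannot show whether the numbers pair them. The highest, 0.31, was for vehicle 2 with ivermectin 3, the pair that lists Yam1 at 0. With the number as a block, 354, 175 and 257 genes were called in the 3 comparisons, and of the 10 genes 6 were lower for ivermectin minus vehicle, 1 higher for importazole minus vehicle and 6 lower for ivermectin minus importazole, where Gapdh no longer passed (limma adjusted p = 0.0597).

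The signs that turned belong to differences that did not pass, all for importazole minus vehicle except Hif1a. With 1 library left out Tpi1 ranged from -0.060 to 0.054, and it was 0.036 without the pair that lists Yam1 at 0. Pgam1 ranged from -0.041 to 0.068 with 1 library left out and was 0.021 with its copy added. Pkm ranged from -0.088 to 0.030 with 1 library left out. Gapdh was -0.86 after quantile normalization (limma adjusted p = 0.621), and -1.06 for ivermectin minus vehicle, where Gapdh ranks 1 in vehicle 2, which lists Yam1 at 0, and takes a normalized log2 value of 14.2 there against 11.6 in vehicle 1. Hif1a, ivermectin minus vehicle, ranged from -0.028 to 0.17 with 1 library left out and was -0.015 without the pair that lists Yam1 at 0. Isoform share differences kept their sign in all alternatives, but with 1 library left out Pgam2, importazole minus vehicle, ran from -2.15 to -0.0030 points and Eno3, ivermectin minus vehicle, from 0.157 to 1.14 points. Absolute depth is unknown, and 3 libraries per group limit precision.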
